A study of Mus musculus with 72 samples.

Results

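Chromatin remodelers and the enzymes that add or remove methyl groups on histones were followed as RNA from the nucleus to the cytosol in E14TG2a, an established line of mouse embryonic stem cells. The genes were taken by symbol, as protein-coding genes of the Chd, Smarc, Arid, Kdm, Kmt and Setd families without Kdm5d, with a mean of at least 400 T positions counted over exons in the nuclear libraries. Of 68 genes with such a symbol 66 were kept, among 13009 protein-coding genes that reach the same minimum. They are 13 Smarc, 9 Arid, 10 Chd, 16 Kdm, 8 Kmt and 10 Setd genes. Kdm4d (mean 77.8 T positions, 0 to 9 reads per nuclear library) and Arid3c (mean 212, 4 to 41 reads) fell below the minimum. Just above it were Smarca2 (mean 603, 20 to 106 reads), Arid5a (mean 2639) and Smarcd3 (mean 5295), so that only Smarca2 lay near the limit.

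Cells were labeled with 4sU (4-thiouridine), a uridine analog built into RNA made during labeling, which after alkylation gives T-to-C conversions in the reads. They were then separated into nuclear, cytosolic and membrane fractions, and poly(A)-selected RNA was sequenced from each fraction and from whole cells, with 18 libraries each. Labeling lasted 15, 20 or 30 min in replicates 1 and 2. It lasted 20, 40, 60 or 120 min in replicates 3 and 4 and either 60 or 120 min in replicates 5 and 6, so that labeling time and replicate pair are partly confounded. The labels give 500 µM 4sU up to 40 min and 100 µM at 60 and 120 min in all replicates, whereas the study's methods also describe 500 µM at 60 min. By the labels, labeling time and dose thus change together between 40 and 60 min. The conversion rate, which is the share of T positions read as C in new RNA, was 5.83% to 8.29% in replicates 3 and 4 and 2.38% to 3.99% in replicates 5 and 6 at 60 min. The 8 libraries of 120 min of replicates 3 and 4 (8.83% to 12.2%) were set aside, which leaves 16 libraries per fraction. They enter the choice of genes by T positions, the marker, depth and pseudogene values and the fit of nuclear levels over time. Otherwise they enter only a count of exon positions named below, the plots over labeling time and the alternatives that name them. No library without 4sU is used here, and no background was subtracted from a share.

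The families have separate tasks on chromatin. Most Smarc genes, and Arid1a, Arid1b and Arid2, encode subunits of SWI/SNF (BAF and PBAF) complexes, which use ATP to move or eject nucleosomes. Smarca1 and Smarca5 encode ISWI ATPases, and the other Arid genes encode DNA-binding proteins outside these complexes. Chd genes encode remodelers, mostly with chromodomains, such as the ATPase of the NuRD complex. Kmt and Setd genes encode mostly histone lysine methyltransferases and Kdm genes encode lysine demethylases. In embryonic stem cells these proteins take part in keeping developmental genes poised and pluripotency genes active.

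Libraries held 13185351 to 52975732 reads assigned to genes. The 7 pluripotency markers ranged from a median of 252 CPM (read counts per 1e6 reads on genes; Sox2) to 1199 CPM (Pou5f1) in whole cells, and the 8 markers of differentiated or feeder cells from 0.124 (Col1a2) to 6.81 CPM (Thy1). Malat1, a nuclear RNA, had a median of 915 CPM in the nucleus and 110 CPM in the cytosol, whereas Neat1, the other nuclear marker, overlapped between them (66.6 to 531 and 9.34 to 274 CPM). mt-Co1 had a median of 46294 CPM in the membrane fraction, 4224 CPM in the nucleus and 297 CPM in the cytosol, so that membrane-associated RNA was also read in the nuclear libraries. The membrane markers mt-Nd4 and Hspa5 did not overlap between the membrane fraction and the nucleus or cytosol. Tfrc overlapped between membrane and nucleus (150 to 1045 and 107 to 721 CPM). Both cytosolic markers overlapped between cytosol and nucleus. Eef2 had 1543 to 4064 CPM in the cytosol and 1828 to 3157 CPM in the nucleus, and Gapdh 2827 to 3852 and 1091 to 2916 CPM. The whole-cell libraries of replicate 6 ran against their labels, with a median exon share over these genes of 0.503 at 60 min and 0.252 at 120 min, where replicate 5 had 0.317 and 0.520. No result on new RNA below uses the whole-cell libraries.

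Per exon length and scaled to a common total (TPM), Chd4 was the most abundant of these transcripts in whole cells, with a median of 318 TPM over 16 libraries (134 to 623). Chd4 is the ATPase of the NuRD complex. It was followed by Kdm1a, a demethylase of histone H3 (median 144), Smarca5, the ISWI ATPase (108), Smarcd1 (100.4), Kdm3a (96.2) and Smarca4, the BAF ATPase (91.3). The ranges of these following genes overlapped widely, with Kdm1a between 70.3 and 199 and Smarca4 between 36.8 and 153. Smarca2, the alternative BAF ATPase, was the lowest at 0.261 (0.0747 to 0.412), below Arid5a (1.09) and Chd5 (2.63). The median over the 66 genes was 19.1.

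The first question was in which compartment these transcripts are found. Reads were compared between nucleus and cytosol across 15576 genes (edgeR quasi-likelihood test, TMM scaling, Benjamini-Hochberg adjustment), with calls made at a log2 difference of at least 1 and an adjusted p under 0.05. Of the 66 genes 11 were higher in the nucleus, against 24.6% of all genes tested, and 1 was higher in the cytosol, against 14.3%. The median log2 difference was 0.34 in these genes and -0.01 in all genes tested. Counts are relative to the RNA of each fraction, so that a log2 difference of 0 does not mean equal numbers of molecules per cell, and in bulk libraries fewer cells and less RNA per cell cannot be told apart. At an adjusted p under 0.05 and any size, 38 of 66 genes were higher in the nucleus, against 42.2% of all genes, and 22 in the cytosol, against 41.9%, and 41 of 66 genes lay above the median of all genes. Whether these genes differ from the others was not tested.

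The highest values were those of Kmt2b and Kmt2a, large methyltransferases of the MLL type, which methylate lysine 4 of histone H3. Kmt2b (chr7:30568858-30588726, GRCm38, minus strand) had 276 to 578 CPM, here and below with TMM scaling, in the 16 nuclear libraries (median 417), 12.0 to 93.9 CPM in the cytosol (median 40.0) and 34.1 to 111 CPM in the membrane fraction (median 69.0). Nucleus and cytosol did not overlap, and the log2 difference was 3.34 ± 0.19 (SE, adjusted p = 4.42e-22, edgeR). Kmt2a (chr9:44803355-44881296, minus strand), the founding MLL gene, had 118 to 435 CPM in the nucleus (median 233) and 8.26 to 86.1 CPM in the cytosol (median 30.0), again without overlap. Its log2 difference was 2.79 ± 0.23 (adjusted p = 7.98e-16, edgeR). Both were in the highest 3% of all genes tested, at percentiles 98.8 and 97.3. The enhancer-directed relatives Kmt2c (1.36 ± 0.16) and Kmt2d (1.17 ± 0.22) were called with smaller differences, and their libraries overlapped, as with 54.6 to 260 CPM in the nucleus and 16.3 to 132 CPM in the cytosol for Kmt2d. Kmt2e, a divergent member, had 0.80 ± 0.11 and was not called. At the other end, Kmt5a (chr5:124439930-124462308, plus strand), which places the first methyl group on lysine 20 of histone H4, had 62.5 to 98.8 CPM in the nucleus and 134 to 220 CPM in the cytosol. It was the only gene called in the cytosol (-1.14 ± 0.05, adjusted p = 3.76e-27, edgeR), so that the Kmt genes held both ends of the range.

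**Figure D1:**
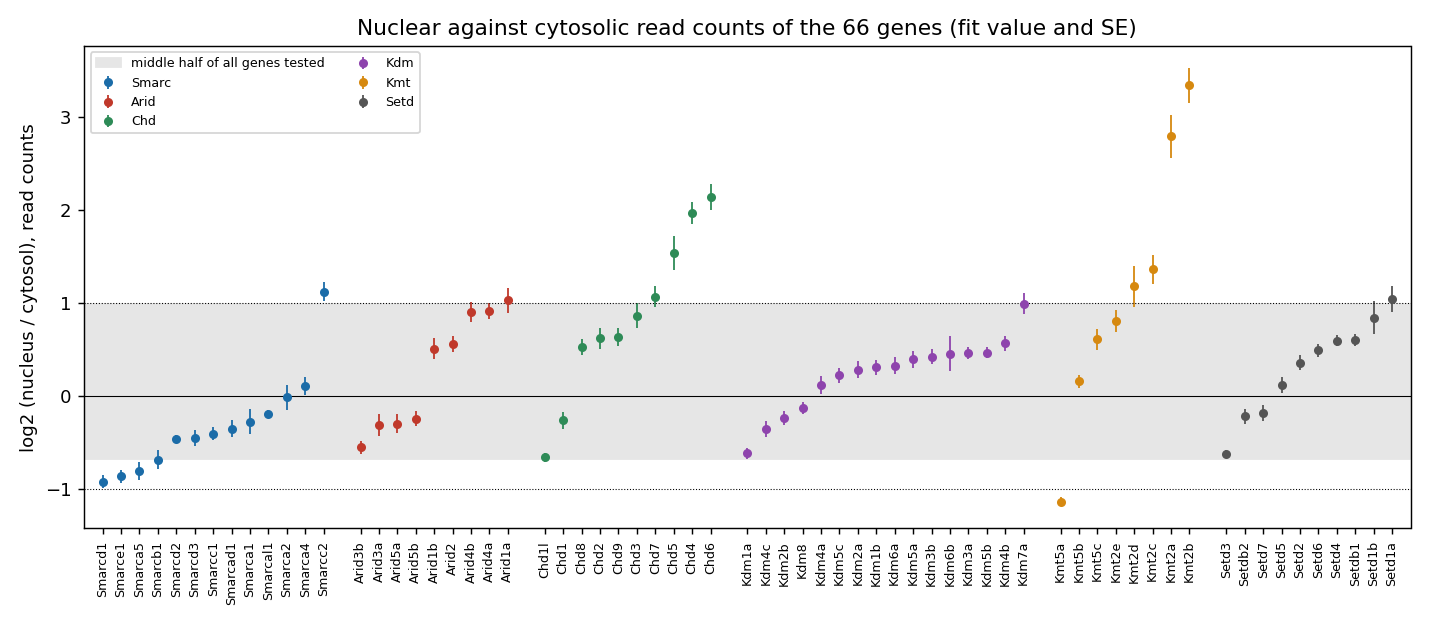
Log2 difference of read counts between nucleus and cytosol (vertical axis) for each of the 66 genes, grouped by family and ordered within it, with the fitted value and its SE from 16 libraries per fraction. The grey band spans the lower to the upper quartile of all 15576 genes tested (-0.68 to 0.98), and dotted lines mark log2 differences of 1 and -1; Kmt2b, Kmt2a, Chd6 and Chd4 stand highest and Kmt5a lowest.

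Among the Chd remodelers 4 of 10 were called in the nucleus. Chd6 (chr2:160946978-161109075, minus strand) had 118 to 284 CPM in the nucleus (median 166) and 20.4 to 65.2 CPM in the cytosol (median 37.0), with a log2 difference of 2.14 ± 0.14. Chd4 (chr6:125095981-125130591, plus strand) was far more abundant, with 1270 to 1877 CPM in the nucleus (median 1593) and 210 to 573 CPM in the cytosol (median 468), and a log2 difference of 1.97 ± 0.12 (adjusted p = 7.19e-21, edgeR). Neither gene overlapped between the fractions. Chd5 (1.53 ± 0.18, with 11.7 to 21.5 CPM in the nucleus) and Chd7 (1.06 ± 0.11), a remodeler bound to enhancers, were also called. Chd8, a close relative of Chd7, had 0.52 ± 0.09, Chd1, which binds methylated histone H3, -0.27 ± 0.09, and Chd1l -0.67 ± 0.05, and these were not called.

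Of the Arid genes only Arid1a was called (1.02 ± 0.13), the large BAF subunit, with 174 to 524 CPM in the nucleus and 92.5 to 274 CPM in the cytosol. Arid2, its PBAF counterpart, had 0.56 ± 0.09, Arid4a 0.91 ± 0.09 and Arid3b -0.55 ± 0.07. The Setd genes had 1 call, Setd1a (1.04 ± 0.14), an H3K4 methyltransferase, and ranged down to -0.62 ± 0.04 in Setd3, which methylates actin. Setd1b (0.84 ± 0.18) and Setd2 (0.35 ± 0.08), the enzyme that trimethylates lysine 36 of histone H3, were not called. The 16 Kdm genes lay inside the limit of 1, from Kdm1a (-0.62 ± 0.06) to Kdm7a (0.99 ± 0.11), a demethylase with a PHD finger, with Kdm5b, an H3K4 demethylase, at 0.46 ± 0.06.

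The Smarc genes were the family with a median below 0 (-0.41). Smarcd1, an accessory BAF subunit, had 99.3 to 146 CPM in the nucleus and 162 to 254 CPM in the cytosol, without overlap (-0.92 ± 0.07). Smarce1 (-0.87 ± 0.07), the ISWI ATPase gene Smarca5 (-0.81 ± 0.10) and the core subunit gene Smarcb1 (-0.69 ± 0.10) were close to it and were not called at a log2 difference of 1. Pseudogene copies of Smarca5 and Smarce1 had at most 325 and 65 reads in any library, and reads shared with them were not resolved. Smarca4 had 162 to 359 CPM in the nucleus and 153 to 274 CPM in the cytosol, and the difference of 0.10 ± 0.10 was within its error (adjusted p = 0.327, edgeR). Smarcc2, a scaffold subunit, was the 1 Smarc gene called in the nucleus (1.11 ± 0.10), with 38.7 to 83.8 CPM against 19.1 to 35.7 CPM in the cytosol. In all, 8 of 66 genes had all 16 nuclear libraries above all 16 cytosolic libraries, against 14.4% of all genes, and 5 had them all below, against 13.8%.

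**Figure D2:**
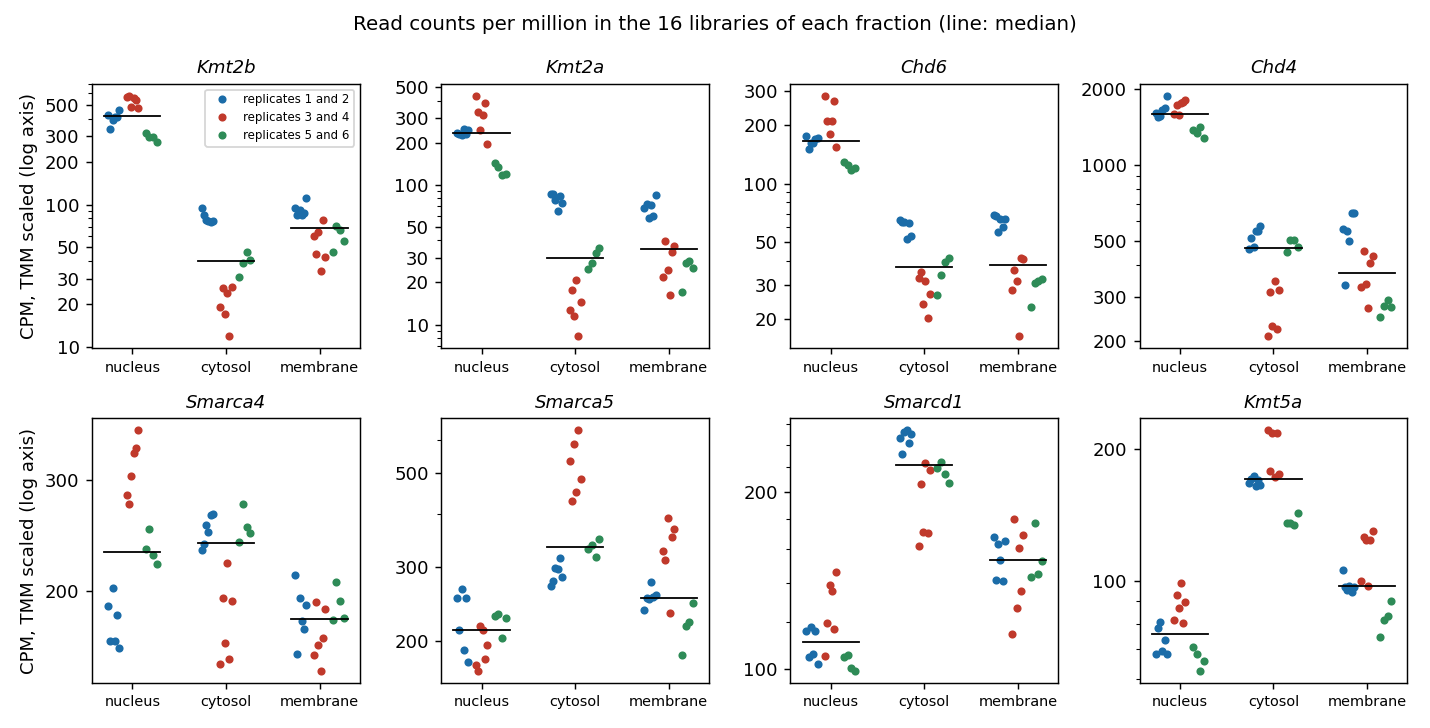
CPM with TMM scaling (logarithmic vertical axis) of 8 genes in the nuclear, cytosolic and membrane libraries, with 1 point per library, colors for the replicate pairs and a line at the median of 16 libraries. Kmt2b, Kmt2a, Chd6 and Chd4 are separated between nucleus and cytosol, and the cytosolic points of replicates 3 and 4 lie below the others in Kmt2b, Kmt2a and Chd4; Kmt5a and Smarcd1 lie higher in the cytosol.

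The size of the difference depended on the replicate pair. Fitted in replicates 1 and 2 alone, Kmt2b had a log2 difference of 2.30, compared with 5.04 in replicates 3 and 4 and 2.96 in the last pair, and for Kmt2a the values were 1.57, 4.85 and 2.14. In the cytosol the median of Kmt2b was 77.5, 21.6 and 40.0 CPM in the 3 pairs. Fitted within 1 pair, the count of genes called in the nucleus was 6 in replicates 1 and 2, against 22.5% of all genes, 33 in replicates 3 and 4, against 36.9%, and 4 in replicates 5 and 6, against 21.1%, while the median of all genes was 0.01, 0.42 and -0.00. Smarca4 changed sign between pairs, with -0.51, 1.17 and -0.07, and the median of the Arid genes less that of all genes was -0.21, 0.76 and 0.21. Without replicate 3 or 4 the count fell to 6 and 7, against 22.6% and 23.4% of all genes. Without replicate 1, 2 or 5 it rose to 18, 17 and 17, against 30.8%, 30.4% and 31.1%. There the median of all genes itself moved to between 0.28 and 0.30. Kmt2b was the highest within every pair, and Kmt2b, Kmt2a, Chd6 and Chd4 had log2 differences of at least 1.44 in each. The order below Kmt2b differed, with Chd4 (1.65) above Kmt2a and Chd6 in replicates 1 and 2, and Kmt2d (3.29) and Chd5 (3.19) above Chd4 (3.01) in replicates 3 and 4.

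Transcripts with more exons and more exonic sequence tended to have the larger log2 difference among these genes. Spearman's correlation over the 66 genes was 0.52 between the number of exon blocks and the log2 difference, 0.43 for exonic length and 0.17 for gene length, against 0.17, 0.21 and 0.10 over 15555 genes. These are descriptions across genes that share the same libraries. The 66 genes have a median of 23.5 exon blocks and a gene length of 51864 bp, compared with 10 blocks and 23698 bp in 13310 protein-coding genes tested.

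Partners of these proteins with other names were compared in the same fit, where 24.6% of all genes were called in the nucleus and 14.3% in the cytosol. Whether these short lists differ from all genes was not tested. Of 13 BAF and PBAF partners tested 2 were higher in the nucleus, Pbrm1 (1.24 ± 0.10), the PBAF bromodomain subunit, and Bcl7a (1.08 ± 0.12), and 2 in the cytosol, Bcl7b (-1.07 ± 0.06) and Bcl7c (-1.18 ± 0.10), with a median of -0.77. Of 11 NuRD partners 3 were called, all in the cytosol, the deacetylase gene Hdac2 (-1.15 ± 0.09), Mbd3 (-1.17 ± 0.08) and the histone chaperone gene Rbbp4 (-1.14 ± 0.07), with a median of -0.84. The highest of these partners was Gatad2b at 0.14 ± 0.08. The ATPases of the complex are not in this list, and Chd3 was at 0.86 ± 0.13, beside Chd4 and Chd5. Of 10 COMPASS partners, subunits found with MLL or Setd1 enzymes, 2 were called, both in the cytosol, Ash2l (-1.33 ± 0.07) and Dpy30 (-1.10 ± 0.10), with a median of -0.15. Of 15 other histone methyltransferases and demethylases only Jmjd1c (1.45 ± 0.13) was called, with a median of 0.02. Of 12 other remodeler subunits Ep400 (1.20 ± 0.13) and Atrx (1.13 ± 0.15) were called, both in the nucleus, with a median of 0.23. The 3 cytosolic NuRD calls and the 2 cytosolic BAF and PBAF calls fell to 0 with total counts, with no filter, with the 120 min libraries, within replicates 5 and 6 and without replicate 2 or 5, and without replicate 1 they were 1 and 0. The 2 COMPASS calls were 1 in the same settings.

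In the membrane fraction these transcripts were slightly lower than in the cytosol. None of the 66 genes was called higher at the membrane by edgeR, against 20.5% of all genes tested, and 2 were higher at an unadjusted p under 0.05, against 29.2% of all genes. Kmt2d was called lower (-1.002 ± 0.215, adjusted p = 5.82e-05, edgeR), against 0.385% of all genes, but within replicates 3 and 4 its log2 difference was 0.42 and without replicate 1, 2, 5 or 6 it was not called. The median was -0.31, against -0.15 in all genes. The highest were Kmt2b (0.63 ± 0.17), Setd4 (0.37 ± 0.06) and Arid1b (0.11 ± 0.11), and the lowest after Kmt2d were Kmt5a (-0.76 ± 0.05), Smarca1 (-0.62 ± 0.14) and Smarcc1 (-0.60 ± 0.07).

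Nuclear levels were then compared between 20 and 60 min of labeling, which by the labels also differ in dose. None of the 66 genes was called at a log2 difference over 0.5 with edgeR, nor was any of the 17810 genes tested (0% in both directions), and at an unadjusted p under 0.05 10 of the 66 genes were lower, against 8.06% of all genes, and 1 was higher, against 11.3%. DESeq2 called 1 gene lower, against 0.561% of all genes. Without replicate 3 edgeR called 11 lower, against 3.86% of all genes, and 1 higher, against 3.58%, but that fit has 1 library per time and takes its spread from the other groups, on the assumption that the lone libraries vary like them. The lowest values were those of Arid4b (-0.69 ± 0.22, adjusted p = 0.164, edgeR), Kmt2e (-0.63 ± 0.23) and Kdm1b (-0.57 ± 0.15), and the highest those of Smarcb1 (0.55 ± 0.30), Smarce1 (0.41 ± 0.13) and Smarcc1 (0.31 ± 0.19). Arid4b had 119 and 88.4 CPM, scaled over the nuclear libraries, at 20 min and 82.3 and 46.2 CPM at 60 min in replicates 3 and 4, with the replicates as far apart as the times.

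The share of new RNA (T-to-C conversions over T counts, divided by the conversion rate) was the main readout of RNA turnover. Exons far from the 3′ end of long genes are labeled later, as described below, and the share was not corrected for this. A share of 0 stands for no new RNA and 1 for RNA made entirely during labeling. Values above 1 can occur because the share is a ratio of estimates. In the nucleus the median exon share over 64 genes with at least 400 T positions in every library was 0.0293 ± 0.0047 at 15 min (SD, n = 2), 0.159 ± 0.005 at 40 min and 0.507 ± 0.017 at 120 min in replicates 5 and 6. In the cytosol it was 0.0161 ± 0.0035, 0.0552 ± 0.0011 and 0.478 ± 0.019. The medians of all 11865 genes were 0.0270, 0.152 and 0.431 in the nucleus and 0.0158, 0.0466 and 0.372 in the cytosol.

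These genes were spread over the range of nuclear exon shares, in which turnover and the later labeling of long genes were not separated. At 60 min, over the 4 libraries of replicates 3 to 6, 11, 18, 19 and 16 of 64 genes lay between the successive quartiles of all genes from the lowest share to the highest. The highest share was in Chd2, a remodeler gene, with 0.614 ± 0.090 (SD, n = 4, percentile 96.8), followed by Kdm2a, a demethylase of lysine 36 (0.531 ± 0.098), Kmt2e (0.488 ± 0.091) and Arid5a (0.465 ± 0.080). These 4 overlapped in their libraries. The lowest share was in Chd4, with 0.0487 ± 0.0031 (percentile 0.784), followed by Smarca4 with 0.0641 ± 0.0142 (percentile 2.14), Chd3 with 0.0759 ± 0.0208 and Smarca1 with 0.0790 ± 0.0756. Chd3 encodes the alternative NuRD ATPase. All 4 libraries of Chd2 (0.497 to 0.716) lay above all 4 of Chd4 (0.0460 to 0.0524). Smarca1 encodes an ISWI ATPase, and its libraries (0.0101 to 0.155) spanned the values of Chd4, Smarca4 and Chd3.

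Nuclear RNA held a larger share of new RNA than cytosolic RNA in most of these genes. In a limma fit of log2(share + 0.01) over 16 libraries per fraction, 51 of 64 genes were higher in the nucleus at an adjusted p under 0.05 and a log2 difference of at least 0.5, against 75.8% of all 11865 genes, and none was higher in the cytosol, against 0.784%; none had an unadjusted p under 0.05 in that direction. The median log2 difference was 0.91, against 0.88 in all genes. All 12 Smarc genes tested were called, as were 14 of 16 Kdm genes, 8 of 10 Setd genes, 6 of 9 Arid genes, 6 of 9 Chd genes and 5 of 8 Kmt genes. The largest differences were those of Smarcd2 (1.89 ± 0.20), Setd6 (1.57 ± 0.17), a methyltransferase with targets outside histones, and Setd5 (1.47 ± 0.17). Smarcd2 had shares of 0.334 and 0.234 in the nucleus and 0.0282 and 0.0371 in the cytosol at 60 min in replicates 3 and 4. Within replicates 5 and 6, which were labeled for 60 and 120 min, 12 of 65 genes were higher in the nucleus, against 19.7% of all genes in that fit, and 4 were higher in the cytosol, against 5.61%.

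The 4 most nuclear genes were the ones with the smallest difference in share. Chd4 had a log2 difference of -0.04 ± 0.11 (adjusted p = 0.757, limma), Chd6 -0.03 ± 0.16, Kmt2a 0.02 ± 0.14 and Kmt2b 0.02 ± 0.18. For these genes the sign turned with the labeling time or the replicate pair. Kmt2b had a nuclear share of 0.0888 and 0.0910 and a cytosolic share of 0.0362 and 0.0729 at 40 min in replicates 3 and 4. At 60 min in replicates 5 and 6 it had 0.135 and 0.107 in the nucleus and 0.283 and 0.279 in the cytosol, and at 120 min 0.410 and 0.376 against 0.762 and 0.679. Both cytosolic libraries were above both nuclear libraries at 60 and at 120 min.

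Kmt2a followed the same course. Its shares were 0.0455 and 0.0393 in the nucleus and 0.0298 and 0.0321 in the cytosol at 15 min, and 0.760 and 0.735 against 1.01 and 1.01 at 120 min in replicates 5 and 6. Cytosolic Kmt2a RNA had thus reached a share of about 1 after 120 min, while nuclear Kmt2a RNA lay below it in both libraries. Chd6 had nuclear shares of 0.518 and 0.478 and cytosolic shares of 0.686 and 0.791 at 120 min. In Chd4 both compartments stayed low, with 0.141 and 0.127 in the nucleus and 0.180 and 0.173 in the cytosol at 120 min. By contrast Kmt2d, which was called in the nucleus by reads as well, kept the higher share in the nucleus (1.42 ± 0.16), with 0.703 and 0.631 against 0.410 and 0.489 at 120 min, as did Arid1a over all libraries (1.25 ± 0.18), although within replicates 5 and 6 the value of Arid1a was -0.07.

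**Figure D3:**
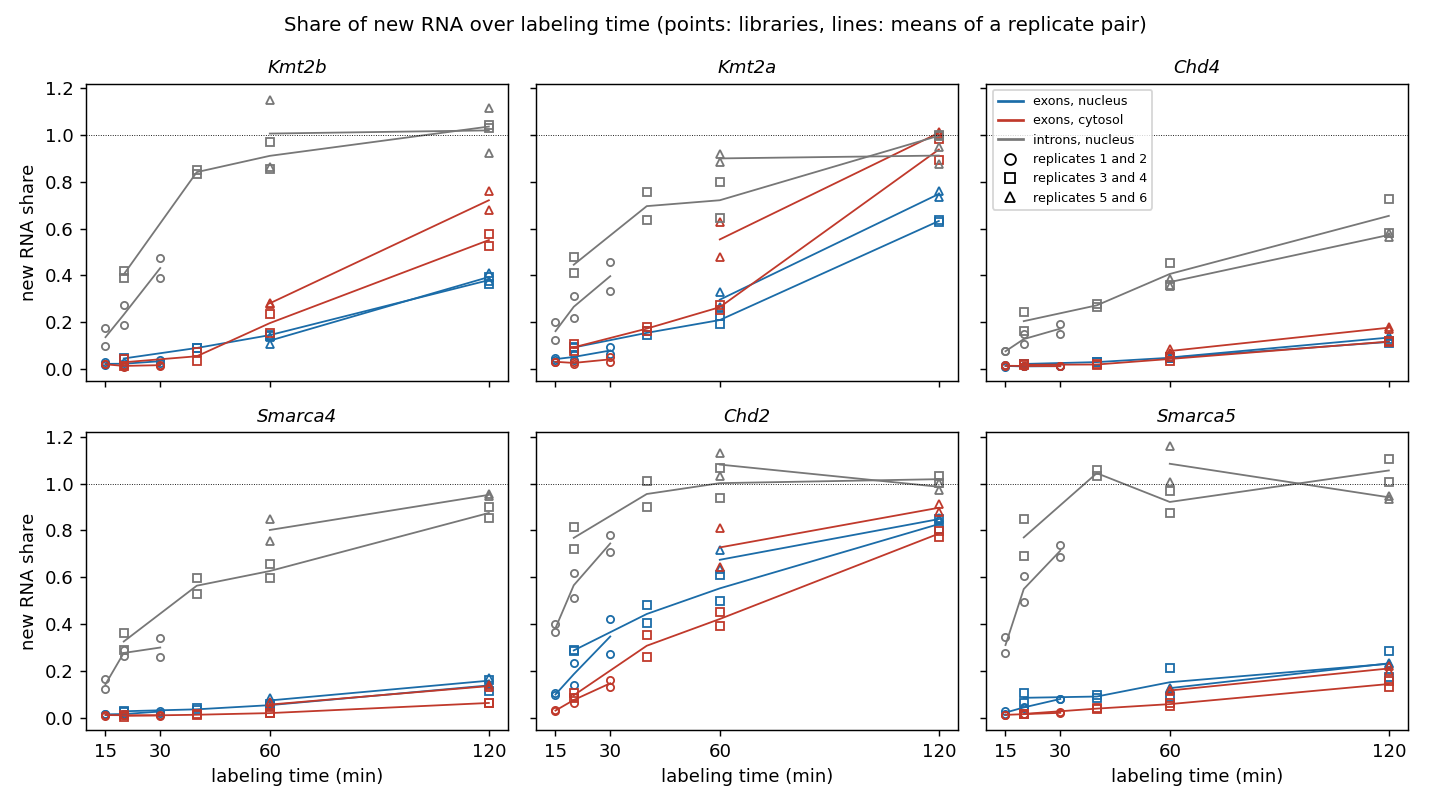
Share of new RNA (vertical axis) over labeling time in minutes (horizontal axis) for 6 genes, in nuclear exons, cytosolic exons and nuclear introns, with 1 point per library, marker shapes for the replicate pairs and lines through the means of a pair; the dotted line marks a share of 1. In Kmt2b and Kmt2a the cytosolic exon share lies above the nuclear one at 120 min, Chd4 and Smarca4 stay under 0.19 in exons, Chd2 rises fastest and Smarca5 combines new introns with old exons.

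The number of genes with the higher share in the cytosol differed with labeling time and replicate pair, in these genes as in all genes. At 20 min in replicates 3 and 4 no gene of 64 had both cytosolic libraries above both nuclear libraries, against 1.1% of all genes, and 55 had both nuclear libraries higher, against 82.4%. At 60 min in the same replicates there were 4 in the cytosol (Chd6, Kmt2a, Kmt2b and Smarca1), against 3.41% of all genes, and 47 in the nucleus, against 74.2%. In replicates 5 and 6 there were 15 in the cytosol at 60 min, against 19.9%, and 32 in the nucleus, against 46.1%. At 120 min there were 18 in the cytosol, against 20.7%, and again 32 in the nucleus, against 47.2%. The 18 included Kmt2a, Kmt2b, Kmt2c and Kmt2e, Chd2, Chd4, Chd6 and Chd9, Setd1b and Setd2, Kdm5a, Kdm5b and Kdm7a. The 60 min values of the pairs 3 and 4 and 5 and 6 differ at the same labeling time, so that time and replicate pair cannot be told apart beyond it. Over the 64 genes, Spearman's correlation between the log2 difference in reads and in share was -0.45, compared with -0.29 over 11412 genes, as a description across genes.

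**Figure D4:**
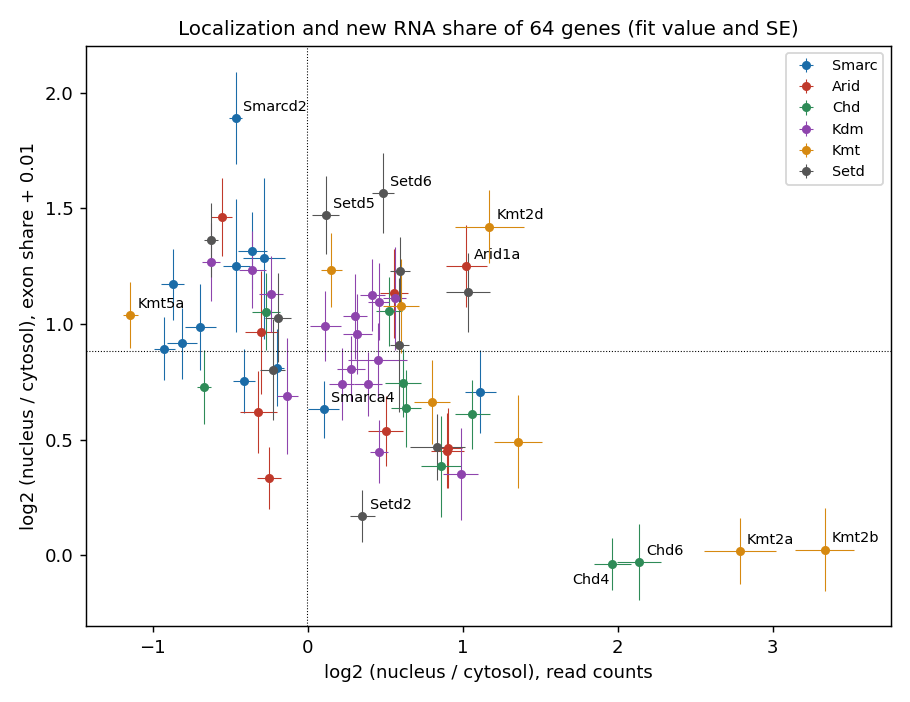
Log2 difference between nucleus and cytosol in read counts (horizontal axis) and in the exon share of new RNA, with 0.01 added (vertical axis), for 64 genes by family, with bars for the SE; dotted lines mark the medians of all genes tested. Kmt2b, Kmt2a, Chd6 and Chd4 lie at the lower right, with nuclear RNA and a share difference near 0, whereas Kmt2d and Arid1a combine nuclear RNA with a higher nuclear share.

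Introns, taken here to mark RNA before splicing, were renewed faster than exons in every gene tested. All 62 genes had a higher intron than exon share in the nucleus (limma, adjusted p under 0.05, log2 difference of at least 0.5), against 96.3% of all 10380 genes, with a median log2 difference of 1.80 against 1.83. The intron share over these genes rose from a median of 0.171 ± 0.006 at 15 min to 0.943 ± 0.009 at 120 min (replicates 5 and 6, SD, n = 2). The largest differences were those of Smarcc1 (3.13 ± 0.12), a BAF scaffold gene, Smarca4 (3.13 ± 0.11) and Smarca5 (2.97 ± 0.12), and the smallest those of Setd5 (0.95 ± 0.10), Setd6 (0.97 ± 0.10) and Kmt5c (1.05 ± 0.11). In the nucleus, T counts per base of intron were 104% of those per base of exon in Setd6 and 70.6% in Kmt5c (medians), compared with 7.95% in Setd5. In Setd6 and Kmt5c intron counts may therefore hold more than RNA before splicing, which was not tested. In Smarca5 the intron share was 0.968 and 0.875 at 60 min in replicates 3 and 4, where the exon share was 0.213 and 0.0906.

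A few genes kept old intron RNA. At 60 min the intron share was 0.338 ± 0.122 in Chd3 (SD, n = 4), 0.363 ± 0.034 in Chd5, 0.389 ± 0.044 in Chd4 and 0.409 ± 0.038 in Kmt5c, all under percentile 3 of all genes, while it reached 1.15 ± 0.08 in Arid5b, 1.09 ± 0.09 in Arid1a and 1.07 ± 0.11 in Arid1b. Chd4 still had intron shares of 0.582 and 0.563 at 120 min in replicates 5 and 6. Kmt5c, with the dense intron counts given above, had 0.0846 and 0.0940 at 30 min, when the median of these genes was 0.452. Chd3, Chd4 and Chd5, which encode related ATPases found in NuRD, were thus 3 of the 4 lowest.

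Intron sequence was also counted in the cytosolic libraries. Per exon T count, intron T counts were higher in the nucleus in 59 of 64 genes (limma, log2 difference of at least 1), against 85% of all 10980 genes, and in none higher in the cytosol, against 0.228%, with no unadjusted p under 0.05 in that direction. The median log2 difference was 2.03, against 2.30 in all genes. It was highest in Smarcd3 (4.09 ± 0.28), Smarca1 (3.89 ± 0.90) and Smarca5 (3.20 ± 0.27). Smarca1 had as few as 0 intron T counts in both fractions and a median of 197 in the cytosol. Its value thus depends in part on the 1 added to each count. Chd6 (-0.03 ± 0.13) and Chd4 (0.21 ± 0.19) had no detectable difference, and Kmt2a (0.49 ± 0.18) and Setd1a (0.53 ± 0.15) had small ones, as opposed to Kmt2b (1.10 ± 0.20). In Chd6 intron T density was 2.97% of the exon T density in the nucleus (median, 1.51% to 4.51%) and 2.95% in the cytosol (1.79% to 4.64%). Chd6, Chd4 and Kmt2a, with the most nuclear reads beside Kmt2b, were the lowest in this measure. Over 64 genes the correlation between both log2 differences was -0.68. Exon counts of the same libraries enter both measures with opposite sign, so that a negative correlation is partly built in and nothing is drawn from it. Nuclear RNA was also read in the cytosolic libraries, where Malat1 had 54.2 to 185 CPM by total reads, and its part in these values was not tested.

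Within long genes, new exon RNA appeared first at the 3′ end. RNA polymerase needs time to cross these genes, and RNA whose transcription began before labeling carries new sequence only at its end. Exons within 10 kb of the annotated 3′ end were compared with exons at 30 kb or more in nuclear libraries, in 37 of the 44 genes of at least 40 kb, each with at least 400 T positions in both sets of exons. Genes were counted where the lower near value of a replicate pair exceeded the higher far value. Spread between replicates thus also lowers the count. Arid1a, with 0.364 and 0.273 near and 0.315 and 0.263 far at 60 min in replicates 3 and 4, was not counted, although near led in each library. The count was 26 of 37 genes at 15 min, against 59.5% of 2228 genes, 30 at 20 min, against 74.6%, and 36 at 30 min, against 89.8%. At 20 min in replicates 3 and 4 the count was 36, against 86.6%, and the median far share was 0.26 of the near share, against 0.21 in all of them. In the same replicates it was 33 at 40 min, against 89.5%, then 16 at 60 min, against 61.4%, with a ratio of 0.74, against 0.50, and 13 at 120 min, against 38.6%, in the libraries of uncertain dose that were otherwise set aside. In replicates 5 and 6 it was 27 at 60 min, against 80.7%. At 120 min in replicates 5 and 6 it was 16, against 60.9%, with a ratio of 0.91, against 0.78.

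Single genes followed this course at their own pace. Chd2 (115193 bp) had near shares of 0.386 and 0.357 and far shares of 0.0835 and 0.103 at 20 min in replicates 3 and 4, and 0.849 and 0.839 against 0.890 and 0.851 at 120 min in replicates 5 and 6, when both far values were above the near values of the same library. Kdm4c (163364 bp), a demethylase of lysine 9, was slower, with 0.316 and 0.181 near and 0.0408 and 0.0132 far at 20 min, and 0.430 and 0.396 against 0.219 and 0.144 at 60 min in replicates 5 and 6. Setd2 had 0.163 and 0.235 near and 0.0433 and 0.0562 far at 40 min, and 0.560 and 0.538 against 0.542 and 0.519 at 120 min. Arid1b, the longest of these genes with 353325 bp, still differed at 120 min, with 0.531 and 0.477 against 0.369 and 0.376. Kmt2c was the exception, with near above far in 9 of 16 libraries, while Chd9, Kdm3a, Kdm4b, Kdm4c, Setd2, Setd3, Setd5 and Smarcc1 had it in all 16.

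**Figure D5:**
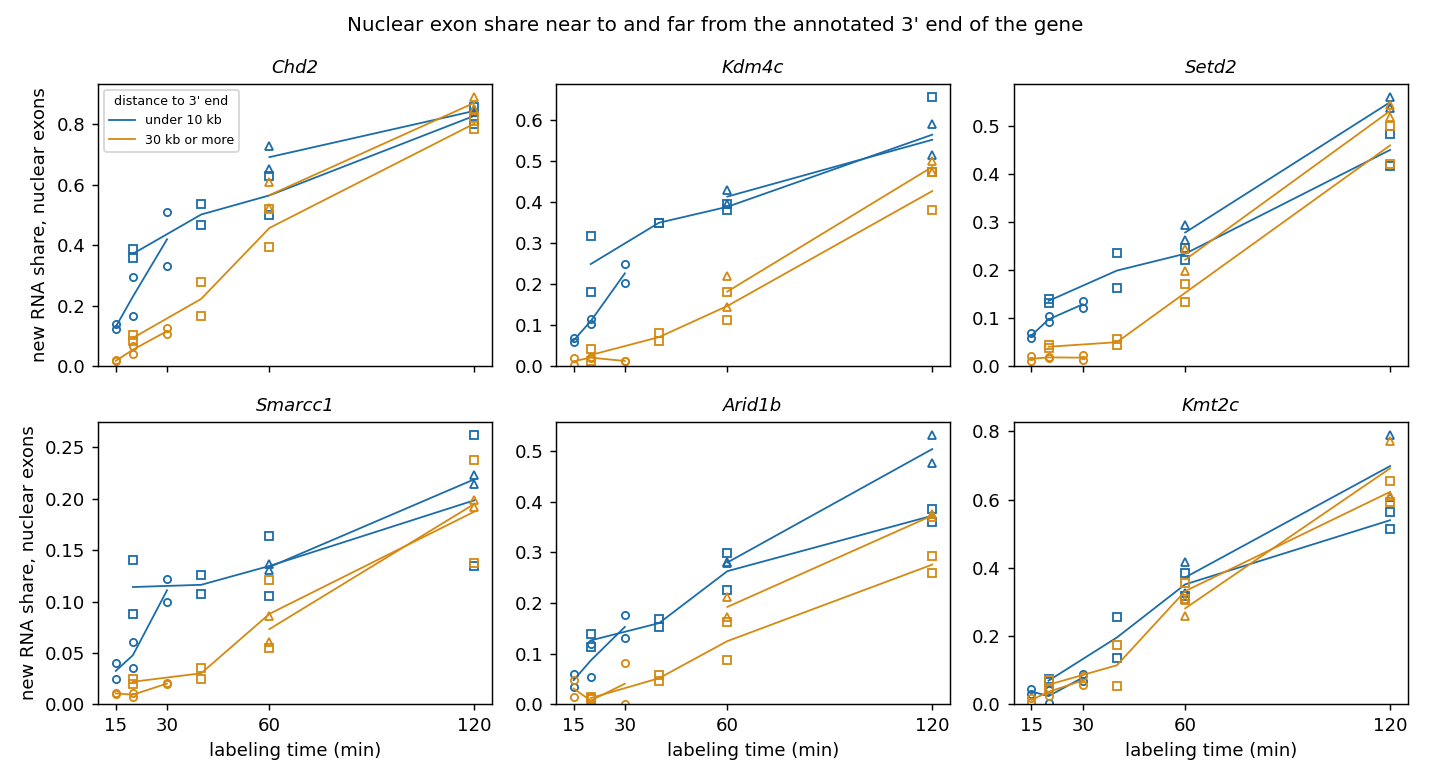
Share of new RNA in nuclear exons (vertical axis, a scale of its own in each panel) over labeling time in minutes, for exons under 10 kb and at 30 kb or more from the annotated 3′ end of 6 genes, with 1 point per library and lines through the means of a replicate pair (circles, squares and triangles for replicates 1 and 2, 3 and 4, 5 and 6). By the means, near exons lead up to 40 min in 5 genes, the far exons catch up by 120 min in Chd2 and Setd2 and remain lower in Arid1b, and in Kmt2c the sets overlap.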

How the data were processed

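The authors aligned reads of strand-specific libraries with STAR 2.7.6 to GRCm38 and deposited read counts per gene made with HTSeq 0.11.1 without normalization. Whether counting used strand is not given in the sources used here. They deposited counts of T positions and of T-to-C conversions per exon, per gene and over introns, a conversion rate per library as a fraction, and the new share as a ratio corrected by it, which was recomputed here from the counts within 1.2e-13. HTSeq summary rows (30.4% to 48.8% of each total) were left out.

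Gene coordinates, lengths and exon blocks are from GENCODE M21 (GRCm38), which matched 51633 of 51826 genes. The authors' annotation release differed. Reads were tested with edgeR (filterByExpr, TMM) with fraction and replicate pair as terms in 16 libraries per fraction, or 1 group per labeling time and pair over all 18 nuclear libraries for 60 against 20 min, with DESeq2 as an alternative. Shares were fitted with limma on log2(share + 0.01) with fraction and the 8 conditions (labeling time and pair) as terms. Intron content is log2 of (intron T + 1) over (exon T + 1). Genes needed 400 T positions in every library used. All p-values were adjusted over all genes tested and are two-sided. Tests were checked on simulated data. The members and lists (BAF and PBAF, NuRD, COMPASS, other methylation enzymes, other remodelers, markers) were chosen with earlier results of these data known. Genes named are the 2 highest and lowest per family, the extremes of each comparison, the genes at the T minimum and a list of known regulators; further genes were named after their values were seen.

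Same-numbered libraries of 1 labeling time are fractions of 1 culture, and deviations of nuclear and cytosolic log2 counts from the pair mean correlated between -0.11 and 0.45 over the 8 conditions. The main fits had no term for culture. Fractions of 1 culture, intron and exon values of 1 library, and labeling times of 1 replicate thus entered as separate values. P-values measure the spread of these values around the terms of each fit, not the spread between independent replicates alone. Versions were R 4.3.3, edgeR 4.0.16, limma 3.58.1, DESeq2 1.42.0 and Python 3.11.15.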

Additional observations from a re-analysis of the deposited data

Results flagged for a closer look

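The exon share of new RNA in nucleus over cytosol ran in opposite directions between replicate pairs in 14 of 64 of these genes (21.9%) and in 989 of 11865 genes (8.34%), which is what marked them: every culture of replicates 5 and 6 (4 of 4) had the higher share in the cytosol and every culture of another pair (6 of 6) had it in the nucleus. The difference between the pairs was not tested, and the pairs were labeled for different times, so that pair and time cannot be told apart.

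In 10 genes this was so against replicates 1 and 2. The mean log2 difference between nucleus and cytosol in replicates 5 and 6, with that in replicates 1 and 2 after it, was -0.81 and 0.57 in Chd6, -0.65 and 0.64 in the H3K4 methyltransferase gene Kmt2a, and -0.54 and 1.21 in Kdm7a. It was -0.29 and 0.33 in Setd2, -0.28 and 0.91 in Arid4a, -0.27 and 1.20 in Chd9, and -0.25 and 0.67 in Arid4b. It was -0.21 and 0.69 in Arid5b, -0.20 and 1.05 in Kmt2e and -0.18 and 0.70 in Setd1b. In the other 4 genes it was so against both other pairs. Their means in replicates 5 and 6, with those in replicates 3 and 4 after them, were -0.21 and 0.70 in the demethylase gene Kdm5b, -0.0896 and 0.80 in Chd2, -0.0769 and 0.69 in the BAF subunit gene Arid1b, and -0.0731 and 1.01 in Kdm5a.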

How the results depend on the processing

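The counts of genes called between nucleus and cytosol by reads (11 and 1) rested most on the replicate pair and the scaling. Shares of all genes called in the same setting are in brackets. The counts were 17 and 0 with no filter on low counts (27.9% and 4.79%) and with total counts only (30.4% and 6.44%). With the 120 min libraries of replicates 3 and 4 they were also 17 and 0 (30.6% and 7.81%). They were 6 and 2 in replicates 1 and 2 alone (22.5% and 13.3%), 33 and 1 in the second pair (36.9% and 14.3%), and 4 and 1 in the last (21.1% and 5.76%). Leaving out 1 replicate gave 6 to 18 in the nucleus (22.6% to 31.1%) and 0 to 2 in the cytosol (7.42% to 15.8%). With DESeq2 the counts were 14 and 1 (27.1% and 10.6%). The median of all genes moved by up to 0.47 (no filter). At the membrane the count lower than in the cytosol (1) was 0 with no filter (1.09%), 2 with total counts (3.63%) and 0 with 120 min (0.383%). It was 2 within replicates 1 and 2 (0.981%) and 0 within replicates 3 and 4 (0.798%), where 2 were higher (21.9%). Leaving out 1 replicate gave 0 to 1 (0.35% to 0.466%). Between 20 and 60 min DESeq2 called 1 gene lower (0.561%) and the fit with no filter 2 (1.32%). Leaving out replicate 1, 2, 5 or 6 gave 0 in both directions (0%). Without replicate 3 or 4 that comparison has 1 library per time. The exon share calls (51 and 0) were 12 and 4 within replicates 5 and 6 (19.7% and 5.61%). Counts for introns against exons and for intron content stayed within 1.5 times. The replicate block by culture, with 11 and 1 calls by reads, changed no count.

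Directions turned in these cases, and the cause was not tested. For the exon share, Arid1a was -0.0679 within replicates 5 and 6. Chd4 was 0.26 within replicates 3 and 4 and ranged from -0.13 to 0.0245 with 1 replicate left out, turning without replicate 5 or 6. Chd6 was 0.0505 with a pseudocount of 0.001, 0.57 within replicates 1 and 2, and -0.23 to 0.11 with 1 left out, turning without replicate 4, 5 or 6. Kmt2a was -0.0635 with a pseudocount of 0.05, -0.0467 with 120 min, -0.16 and -0.65 within the second and last pairs, and -0.20 to 0.11 with 1 left out, turning without replicate 1 or 2. Kmt2b was -0.0964 with a pseudocount of 0.05, -0.0367 with 120 min, -1.01 within replicates 5 and 6, and -0.14 to 0.18 with 1 left out, turning without replicate 1, 2 or 3. For intron content, Chd4 was -0.17 and -0.55 within the first and last pairs and -0.0976 to 0.35 with 1 left out, turning without replicate 3. Chd6 was 0.0550 with 120 min, 0.0511 and 0.0573 within the first and second pairs, and -0.13 to 0.0519 with 1 left out, turning without replicate 4 or 6. Within replicates 1 and 2 the median of these genes less that of all genes turned to 0.0606 for intron content and 0.0968 for introns against exons. Less the median of all genes, Kmt2d at the membrane was 0.41 within replicates 3 and 4. The values by reads between nucleus and cytosol are also less the median of all genes. By these, Chd1 was 0.12 and Setd1b -0.0220 within replicates 1 and 2. Smarca4 was -0.52 and -0.0648 within the first and last pairs, and -0.0772 to 0.26 with 1 left out, turning without replicate 3 or 4. With no filter Smarca4 was -0.0698, but there the median of all genes itself moved, so that this turn is only relative to it.

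Depth limited the cytosolic values of the most nuclear genes, with as few as 6160 exon T positions for Kmt2b in 1 cytosolic library at 60 min, against at least 191273 in the nucleus. Shares are not corrected for conversions in unlabeled RNA.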
